A study of Caenorhabditis elegans with 4 samples.

Results

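The X chromosome carried 1008 of the 9643 COH-3 peaks in the whole-series list, of which 9642 lie on the 6 nuclear chromosomes. The members were taken by chromosome name alone, so neither score nor width entered the choice. COH-3 belongs to the kleisins, which bridge the heads of the SMC subunits of cohesin, and works in meiosis. Chromatin immunoprecipitation followed by sequencing (ChIP-seq) mapped its positions. The worms were Caenorhabditis elegans hermaphrodites of strain fem-2(b245), with the allele on chromosome III, as young adults with a germline grown at 20 degrees Celsius. Chromatin came from whole worms, and the growth protocol speaks of gravid animals. All 4 libraries share this genotype, stage and temperature. The COH-3 ChIP group had 2 libraries made with an affinity-purified rabbit polyclonal antibody (SDQ3948), each with a peak list, and the input DNA group had 2 libraries that were not analysed here. The labels do not say whether the 2 ChIP replicates came from separate cultures, so their spread may be technical.

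Cohesin holds sister chromatids together and organises chromatin into loops. In the germline COH-3 and its close relative COH-4 act beside the kleisin REC-8 to build the axes of meiotic chromosomes. The X chromosome differs from the autosomes in worms: most of its genes are silent in much of the germline, and in the soma of hermaphrodites a condensin-containing dosage compensation complex loads at recruitment sites on X and spreads along it. In an extract of whole worms the germline and the soma were not separated, so binding in fewer cells and weaker binding per cell cannot be told apart. A defining marker of either tissue could not be checked in peak lists. Gene, promoter and sequence context of the peaks was not analysed here, because the gene table at hand is for another assembly than the WormBase WS220 positions of the peaks.

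X peaks were few and narrow. The whole-series list had 56.9 peaks per Mb on X, and the 5 autosomes had 74.1 to 138 per Mb, with a mean of 108 ± 25.2 (SD, n = 5 chromosomes). X therefore had the lowest density of the 6 chromosomes, at 0.528 times the autosomal mean. In the replicate 2 list X was lowest as well, with 20.3 per Mb beside 31.6 to 57.3. In the replicate 1 list the 25.2 per Mb on X equalled the value of chromosome V to the digits given, and the other autosomes ran from 31.0 to 43.0 per Mb. X was thus set apart by density in replicate 2 and not in replicate 1. Peaks covered 415 kb of X, or 2.34% of its length, beside 3.38 to 6.57% of the autosomes.

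The median X peak was 268 bp wide, with quartiles at 199 and 405 bp and a range from 146 to 9883 bp. Autosomal medians were 291 to 308 bp. Both replicate lists placed X at the lower end too, with a median of 478 bp beside 504 to 565 bp in replicate 1, and of 294 bp beside 312 to 336 bp in replicate 2. Width and score went together to the same degree on X and on the autosomes, with a Spearman rho of 0.66 in both. This is a description across peaks, which share their libraries. Peaks of 2 kb or more numbered 13 on X, or 1.29%, beside 1.76 to 2.52% on the autosomes.

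The differences between X and the autosomes were tested with the chromosome as the unit, since peaks of one genome are not replicates. An exact two-sided permutation of which chromosome is X cannot give a p under 0.167 with 1 chromosome against 5, so no difference could pass 0.05. Of the 23 measures tested, 13 were added after values of these data were seen. Several are one measure taken in more than 1 list, so the counts below describe related measures. X lay outside the range of the autosomes in 21. In 1 of these, the density in replicate 1, it did so by less than the digits shown. In 19 measures X stood farther from the other chromosomes than any autosome did (exact permutation p = 0.167, Benjamini-Hochberg adjusted p = 0.202). The density and the median width in the whole-series list and in replicate 2 were among these 19, whereas in replicate 1 both had an exact permutation p of 0.333 (adjusted p = 0.365).

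**Figure D1:**
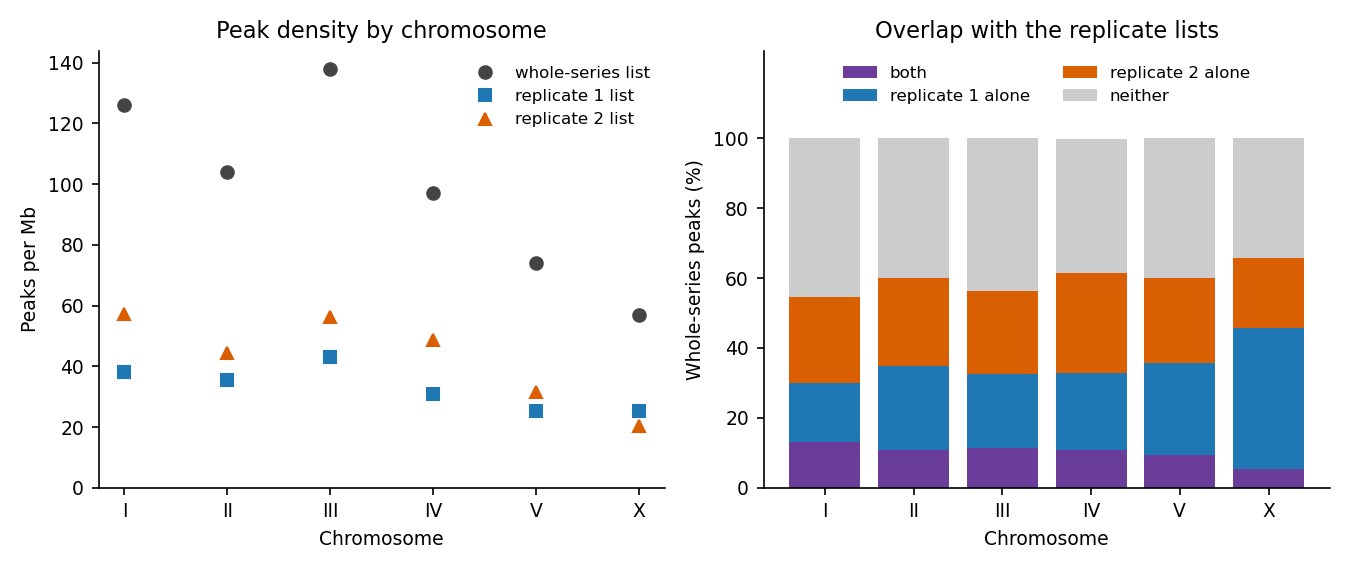
Left, peaks per Mb on each chromosome in the whole-series list and the 2 replicate lists. Right, stacked bars of the share of whole-series peaks that overlap a peak of both replicates, of replicate 1 alone, of replicate 2 alone or of neither by at least 1 bp. X is lowest in the whole-series and replicate 2 lists and has the largest segment for replicate 1 alone, 40.4%.

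X peaks were spread along the whole chromosome with little difference between its parts. The left arm, up to 6.14 Mb, held 339 peaks or 55.2 per Mb. The centre held 346 or 54.6 per Mb, and the right arm, from 12.48 Mb, held 323 or 61.7 per Mb. Median widths were alike, at 270, 270 and 263 bp, and the median score was 6.38 in the left arm, 6.12 in the centre and 7.22 in the right arm. Among 17 successive bins of 1 Mb, the fewest peaks were 35, in the fourth bin from the left end, and the most were 74, in bin 15. Bins 6 and 7 followed with 67 peaks each.

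The replicates distributed their X peaks differently. Replicate 1 had 20.8 peaks per Mb in the left arm, 27.0 in the centre and 28.3 in the right arm. Replicate 2 had 26.2, 13.4 and 21.6 per Mb, so that its centre was the sparsest part, with 85 of 359 X peaks. In replicate 2 the first bin held the most X peaks, 41, and bin 8 the fewest, 8, while replicate 1 had 15 and 31 in the same bins. Over the 17 bins, which lie on one chromosome, the counts of the replicates had a Spearman rho of -0.16. The whole-series counts followed replicate 1 with a rho of 0.64 and replicate 2 with a rho of 0.17. These are descriptions of one chromosome in lists that share libraries.

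**Figure D2:**
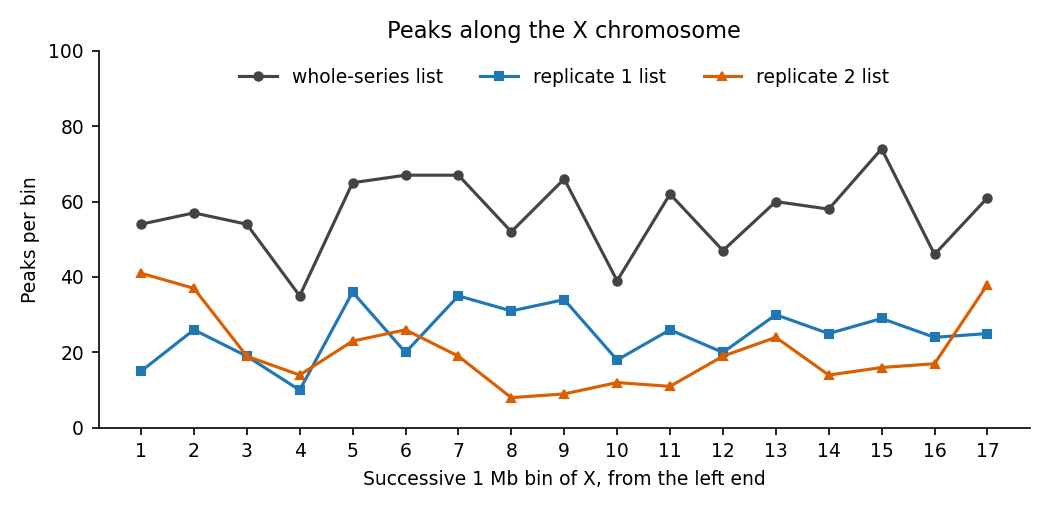
Number of peaks in each of 17 successive 1 Mb bins of X, counted from the left end, in the whole-series list and in the 2 replicate lists. Replicate 2 is highest in bin 1, with 41 peaks, and lowest in bin 8, with 8, where replicate 1 has 31.

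Autosomes of C. elegans have gene-dense centres and repeat-rich arms, a contrast that is weak on X. With the middle 33.3% of each chromosome taken as the centre, whole-series peaks on X were 1.01 times as dense in the centre as outside it. On the autosomes this ratio was 1.51 to 1.73. X was also lowest in each replicate list. In replicate 1 the ratio was 1.17 on X and 1.78 to 2.27 on the autosomes, and in replicate 2 it was 0.502 on X and 0.756 to 1.09 on the autosomes. The 3 lists thus differ in the level of the ratio and share the place of X as the lowest of the 6 chromosomes (exact permutation p = 0.167 in each, adjusted p = 0.202).

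Spacing between X peaks was wide and uneven. The gap from the end of a peak to the start of the next had a median of 7063 bp on X, with quartiles at 962 and 24854 bp, beside autosomal medians of 2016.5 to 3230 bp. At the short end, 258 of 1007 gaps, or 25.6%, were under 1 kb, beside 33.5 to 39.1% on the autosomes. Joining peaks across gaps under 1 kb left 750 clusters, of which 611 were single peaks and 139 held 397 peaks, or 39.4% of all X peaks. X peaks were thus mostly isolated, with a minority in short runs.

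The largest runs on X had 9 peaks each, at X:2057071-2063944 and X:10361040-10368972. Each spanned several kilobases, 6.87 kb and 7.93 kb. The highest score was 124.97 in the first and 40.38 in the second. A single replicate 2 peak at X:10360982-10365418, scored 1252.09, overlapped 5 peaks of the second run. Some runs therefore correspond to a wider peak in a replicate list. Counted over replicate peaks, such splitting was uncommon, and the share of runs that it accounts for was not counted. Of the 436 replicate 1 peaks on X found in the whole-series list, 29 overlapped more than 1 of its peaks, or 6.65%. For replicate 2 it was 14 of 264, or 5.3%. The autosomal shares were near these, at 8.8% in replicate 1 and 4.55% in replicate 2. At the other extreme, the longest gaps were X:11095786-11299575 with 204 kb, X:6378624-6518556 with 140 kb and X:6932422-7068430 with 136 kb. Neither replicate list had a peak inside any of these 3 gaps. The first begins within 1 kb of the end of X:11093411-11094796, one of the highest-scoring X peaks.

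Whole-series scores on X resembled those of the autosomes over most of the list and separated from them at the top. The score is the authors' peak score, whose kind is not stated, and it ranks peaks within a list only. The median whole-series score was 6.61 on X and 6.06 to 6.38 on the autosomes, a difference whose sign turned in the upper 50% of the list (-0.596) and with peaks within 1000 bp joined (-0.606). The quartiles on X were 4.27 and 11.78. At the 99th percentile X stood at 164.3, while the autosomes ranged from 66.5 to 91.77 (exact permutation p = 0.167, adjusted p = 0.202). In the whole-series list X was thus ordinary in its bulk and set apart in its highest percent. The replicate lists differed in their bulk. In replicate 2 the median score was 99.6 on X, below the autosomal 124 to 137 (exact permutation p = 0.167, adjusted p = 0.202). In replicate 1 it was 115 on X, inside the autosomal 113 to 126.

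The upper tail can be followed by counts. A score of 20 or more was reached by 13.2% of X peaks and by 12.2 to 13.4% of peaks on each autosome. At 50 or more the shares were 4.66% on X and 2.04 to 3.36% on the autosomes. At 100 or more they were 2.58%, or 26 peaks, and 0.21 to 0.885%, against 0.726% of all nuclear peaks. X held 37.1% of the 70 peaks at or above 100 and 61.5% of the 26 at or above 150. The excess was smaller in replicate 2 than in replicate 1. X held 25 of the 100 highest replicate 1 peaks and 13.9% of that list. It held 11 of the 100 highest replicate 2 peaks and 8.56% of that list. A score of 1000 or more was reached by 7.61% of X and 4.68% of autosomal peaks in replicate 1, and by 7.8% and 5.69% in replicate 2. By score class of the whole list, X made up 8.3% of the lowest class of 10% and 11.7% of the highest, with values between 9.02 and 11.7% in the other 8 classes.

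**Figure D3:**
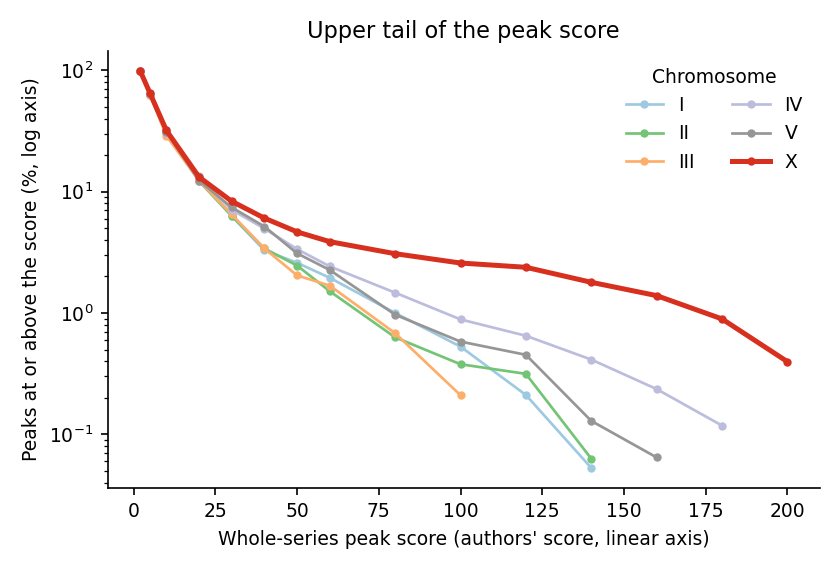
Share of the whole-series peaks of each chromosome (log axis) at or above a given score (linear axis), with points at fixed scores and lines joining them, and points at 0 not drawn. The lines lie together up to a score of 20, where X has 13.2%, and X lies above the 5 autosomes from 30 on, with 2.58% of its peaks at 100 or more.

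The 20 highest-scoring X peaks stood at 127.58 or more and were spread along the chromosome. Their median width was 1158.5 bp, wider than the X median of 268 bp, and 19 of them ran from 482 to 1882 bp. Another X peak lay within 1 kb of 5 of them, the highest included. The left arm held 8, the centre 6 and the right arm 6, in 14 of the 18 bins of 1 Mb, the last of them incomplete. Neighbours among the 20 were a median of 843 kb apart, and from 44.7 to 1739.8 kb. The highest of all was X:14525150-14526621 in the right arm, whose whole-series score of 205.15 stood beside 3100 in replicate 1 and 363.65 in replicate 2. The highest of the centre was X:6295919-6297218, at 201.77, with 3100 in replicate 1 and 582.78 in replicate 2. The highest of the left arm was X:2996264-2997636, at 192.83, with 3100 in replicate 1 and 333.94 in replicate 2. Scores of the 2 lists are not known to share a scale, so ranks within each list are compared: all 3 stood at the 99.4 percentile of replicate 1, and at 82.2, 89.4 and 80.6 in replicate 2.

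The other members of this group follow, with the replicate 1 score before the replicate 2 score. X:8035719-8037111 had a whole-series score of 200.59 and stood at 3100 in replicate 1 and 337.19 in replicate 2. X:11093411-11094796, at 200.12, had 3100 and 479.57, and X:16055871-16056981, at 191.69, had 3100 and 310.07. X:9465247-9466492, at 187.14, had 2912.3 and 268.14. Within their lists these 4 stood at percentiles of 98.7 to 99.4 in replicate 1 and 75.6 to 86.8 in replicate 2. X:4208412-4209854, at 181.28, had 3100 and 190.68. X:16681489-16682553, at 180.52, had 2378.97 and 157.39, and X:11936867-11937972, at 176.21, had 2937.27 and 205.18. These 3 lie in the left arm, the right arm and the centre, and their replicate 2 scores were lower than those of the 7 peaks before them.

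The remaining 10 included 4 peaks with no replicate 2 peak. X:806344-807010, at 160.06, scored 1982.69 in replicate 1, and X:1344623-1345334, at 153.55, scored 2094.45. X:1389144-1390195, at 146.91, scored 2840.52, and X:17544258-17544739, at 127.58 the lowest of the 20, scored 1332.49. The first 3 of these 4 lie in the left arm, the part of X where replicate 2 had its highest density. Of the other 6, X:12362508-12363713, at 164.38, had 3100 and 383.62, and X:1626640-1627739, at 162.3, had 2690.79 and 111.24. X:5429039-5429900, at 156.49, had 2442.65 and 172.9, and X:13700334-13701105, at 140.17, had 2741.17 and 159.65. X:1503283-1505164, at 135.0, had 3100 and 812.73. X:16929254-16939136, at 163.28, was the exception in width, as the widest X peak with 9883 bp. It stood at 3100 in both replicates, at percentiles of 99.4 and 99.1, which differ only through the number of peaks at or above that score in each list.

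Over the 20, the replicate 1 score had a lowest value of 1332.49, a median of 3018.64 and a highest of 3100, and 10 peaks stood at 3100. For the 16 found in replicate 2, its score ran from 111.24 to 3100 with a median of 322. Ranked within their own list, these peaks had a median percentile of 99.0 for replicate 1 and 79.7 for replicate 2, and the percentile was higher in replicate 1 for 16 of 16 peaks found in both, the tied broad peak included. The midpoint of the whole-series peak lay a median of 22.8 bp from that of replicate 1 and 57.2 bp from that of replicate 2. The largest distances, at the broad peak, were 1582.5 and 2368 bp. Only overlapping peaks were measured and the lists share libraries, so small distances are no independent check of position. The replicate 1 peaks had a median width of 1236 bp at these places and the replicate 2 peaks 502 bp.

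The next 20 X peaks, from rank 21 to 40, scored from 127.4 down to 55.93 and were mixed. They were examined after the values were seen. Of these, 7 were in both lists, 5 in replicate 1 alone and 8 in replicate 2 alone. X:142824-143710, at 127.4, had 65.09 in replicate 1 and 3100 in replicate 2. X:2057753-2058466, at 124.97, had 134.28 and 3100, and X:2002665-2003566, at 114.46, had 121.89 and 3100. These 3 lie in the left arm. In the right arm X:17311315-17311841, at 78.54, had 63.65 and 2230.26. These 4 peaks ranked higher within replicate 2, with percentiles of 14.1 to 56.0 in replicate 1 and 97.5 to 99.1 in replicate 2. The other 3 of the 7 ranked higher within replicate 1, among them X:7181468-7182114, at 120.28, with 1411.49 and 55.95.

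The width of strong X peaks beside autosomal ones depended on the replicate and, in replicate 2, on the cut. Among the 100 highest-scoring peaks of replicate 1, the 25 on X had a median width of 1411 bp, and those on the autosomes had medians of 2789.5 to 3078 bp. Among the 100 highest of replicate 2, the 11 on X had a median of 2934 bp, and the autosomes had medians of 1935 to 2504.5 bp. At this number X was below the autosomes in replicate 1 and above them in replicate 2 (exact permutation p = 0.167 in each, adjusted p = 0.202). Among the 50 highest, X had 1430.5 bp beside 2501 to 4773 bp in replicate 1, and 3840 bp, inside the autosomal 2823 to 5464 bp, in replicate 2. Among the 20 highest of replicate 1 the 2 X peaks had a median of 5923 bp, above the autosomal 3946 to 5183 bp. Peaks of equal score were ordered by width. The 20 highest of replicate 1 and the 50 highest of replicate 2 took only some of the peaks tied at 3100. Width itself picked their members, so these sets cannot compare widths. At a replicate 1 score of 1000 or more the medians were 1430.5 bp on X and 2484.5 bp on the autosomes. At a replicate 2 score of 1000 or more they were 1634.5 bp and 1554 bp. At the cuts not picked by width, X was thus the narrower in replicate 1. In replicate 2 it was the wider, by little at 1000 or more. Of the 5 widest X peaks in the whole-series list, X:16929254-16939136 was in both replicates. X:289806-295312, 5507 bp wide, and X:109124-114318, 5195 bp wide, stood at 3100 in replicate 2 with no replicate 1 peak. X:3111700-3116644, 4945 bp wide, stood at 3100 in replicate 1, and X:4144419-4148421, 4003 bp wide, at 2327.13, both with no replicate 2 peak. Of the 13 whole-series X peaks of 2 kb or more, 2 were in both lists, 3 in replicate 1 alone and 8 in replicate 2 alone. The replicate lists themselves held similar numbers of X peaks this wide, 11 in replicate 1 and 13 in replicate 2.

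**Figure D4:**
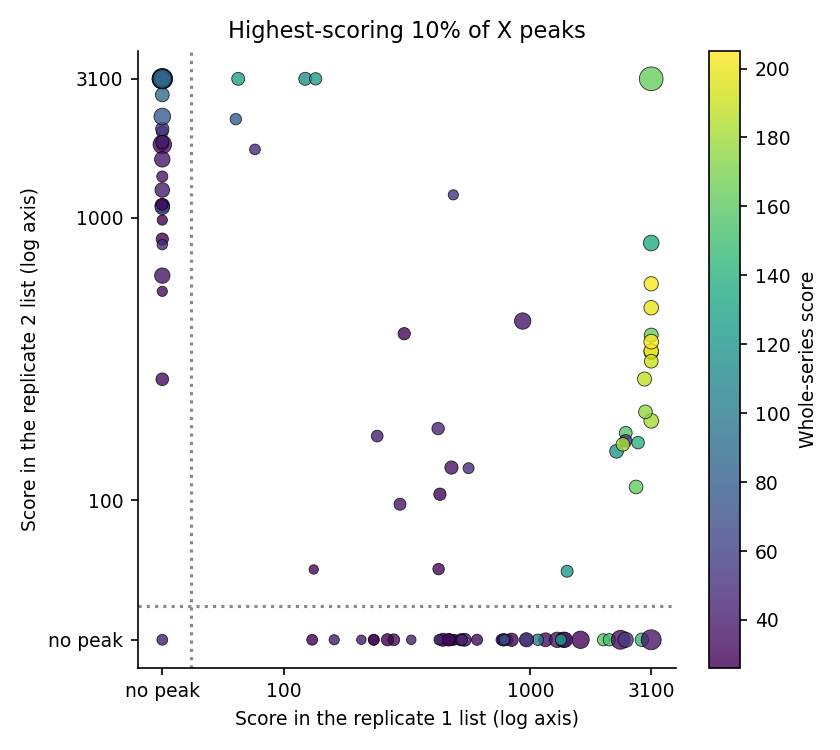
Score of the overlapping peak in replicate 1 (log axis) against that in replicate 2 (log axis) for the 101 highest-scoring X peaks, with peaks absent from a list placed beyond the dotted line at "no peak". Colour gives the whole-series score and point size grows with peak width. The 20 points with the highest whole-series scores lie towards the right, with replicate 1 scores of 1332.49 or more. Of these, 16 have replicate 2 scores from 111.24 upward and 4 have no replicate 2 peak. A single broad peak stands at 3100 in both.

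Support in the replicate lists was uneven on X. A whole-series peak was counted as supported where it shared at least 1 bp with a replicate peak. On X, 54 peaks were in both lists (5.36%, exact binomial 95% interval 4.05 to 6.93), while 10.6% of all nuclear peaks were and the autosomes ranged from 9.29 to 13.1%. Replicate 1 alone supported 407 (40.4%, 37.3 to 43.5), against 23.8% of all peaks and 16.9 to 26.4% on the autosomes. Replicate 2 alone supported 201 (19.9%, 17.5 to 22.5), against 24.8% and 23.7 to 28.6%. Neither list supported 346 (34.3%, 31.4 to 37.3), against 40.9% and 38.5 to 45.3%. X was outside the range of the autosomes in all 4 classes (exact permutation p = 0.167 in each, adjusted p = 0.202). The intervals cover counting error over peaks only.

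Seen from the replicate lists, 436 of 447 replicate 1 peaks on X were in the whole-series list (97.5%, 95.6 to 98.8), against 97.8% of the whole replicate 1 list. Of the 359 replicate 2 peaks on X, 264 were (73.5%, 68.7 to 78.0), against 85.0% of its list and 82.2 to 88.6% on the autosomes. The X peaks of replicate 2 thus entered the whole-series list less fully than those of any autosome, and X peaks of replicate 1 about as fully. The 95 replicate 2 peaks on X with no whole-series peak were weak, with a median score of 62.14 beside 148.99 for those that had one. On the autosomes these medians were much the same, at 63.78 and 149.9. The strongest was X:9606175-9606679, with a replicate 2 score of 196.37. The 95 were 51 of the 161 replicate 2 peaks in the left arm, 21 of 85 in the centre and 23 of 113 in the right arm. The 11 replicate 1 peaks left out scored at most 83.03.

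Support on X depended on score. In the highest score class of the X list, from 26.12 upward, 35 of 101 peaks were in both replicates, 40 in replicate 1 alone, 25 in replicate 2 alone and 1 in neither. In the classes below the middle of the X list, up to a score of 6.58, no peak was in both, and 51.5 to 67.3% were in neither. Peaks in both lists had a median score of 43.05 and a median width of 718 bp. Those in replicate 1 alone had 9.21 and 328 bp, those in replicate 2 alone 6.8 and 299 bp, and those in neither 4.42 and 198 bp. Support on X thus went with higher and wider peaks, as it did on the autosomes. There, peaks in both lists had a median score of 25.89 and a median width of 720 bp, and those in neither 4.39 and 210 bp.

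X and autosomal peaks of like score were supported differently. In the highest class of the whole list, 32.7% of the 113 X peaks were in both replicates (24.2 to 42.2) and 63.3% of the 852 autosomal peaks (59.9 to 66.5). Replicate 1 alone supported 41.6% of these X peaks (32.4 to 51.2) and 13.3% of the autosomal ones (11.1 to 15.7). Replicate 2 alone supported 24.8% and 22.9%. In class 8, with scores from 10.12 to 14.36, replicate 1 alone supported 69.0% of X peaks (59.6 to 77.4) and 36.0% of autosomal peaks (32.7 to 39.3). In the same class replicate 2 alone supported 18.6% (11.9 to 27.0) and 41.7% (38.4 to 45.1). The share for replicate 1 alone was higher on X than on the pooled autosomes in every class, with the smallest contrast in class 3, 17.0% beside 14.0%. The intervals cover counting error over peaks only. Neighbouring peaks can share a replicate peak, and pooling hides the spread between autosomes. The intervals therefore cannot decide whether X differs from the autosomes in a class. No test over peaks was made.

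**Figure D5:**
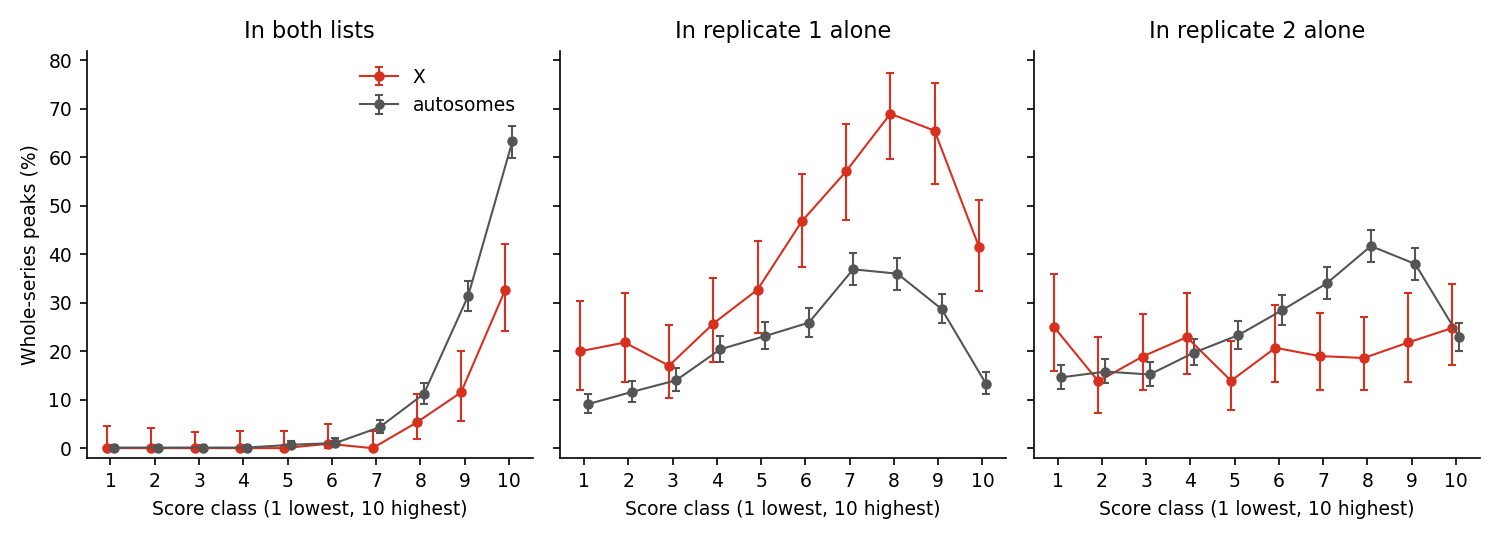
Share of whole-series peaks in both replicate lists (left), in replicate 1 alone (middle) and in replicate 2 alone (right) by score class of the whole list, for X and for the 5 autosomes together; bars are exact binomial 95% intervals over peaks. X lies above the autosomes for replicate 1 alone, with 69.0% beside 36.0% in class 8, and below them for both lists in class 10, with 32.7% beside 63.3%.

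Where both replicates had a peak, they ranked it differently on X than elsewhere. The percentile within its list was higher in replicate 1 for 38 of the 54 X peaks in both lists, or 70.4%. On the autosomes this share was 36.1 to 46.5% (exact permutation p = 0.167, adjusted p = 0.202). Of the 37 such X peaks in the highest class of the whole list, 30 ranked higher in replicate 1, or 81.1%, beside 34.4 to 41.4% on the autosomes. Between the 2 replicate scores of these 54 peaks the Spearman rho was 0.22, a description across peaks of one chromosome. Over all peaks in both lists, most thus ranked higher in replicate 1 on X and in replicate 2 on each autosome. At scores of 100 or more the shares higher in replicate 1 were 18 of 21 on X, 3 of 5 on chromosome II and 4 of 8 on chromosome V.

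The arms and the centre of X differed in which replicate supported their peaks. In the left arm, replicate 1 alone supported 108 of 339 peaks (31.9%, 26.9 to 37.1) and replicate 2 alone 88 (26.0%, 21.4 to 31.0). In the centre these were 165 of 346 (47.7%, 42.3 to 53.1) and 51 (14.7%, 11.2 to 18.9). In the right arm they were 134 of 323 (41.5%, 36.1 to 47.1) and 62 (19.2%, 15.0 to 23.9). The lead of replicate 1 was thus widest in the centre and narrowest in the left arm. Replicate 1 peaks were also the more central on the autosomes. With the middle 33.3% as centre, the autosomal density ratios were 1.78 to 2.27 in replicate 1 and 0.756 to 1.09 in replicate 2. Peaks in both lists were rare in each part of X, with 19 in the left arm (5.6%), 15 in the centre (4.34%) and 20 in the right arm (6.19%).

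The 346 X peaks with no support were narrow and low, with a highest score of 41.39. That score belonged to the last X peak, at X:17718467-17718889, and it is the sole unsupported peak in the highest score class of X. The first X peak, at X:1-344, was in both lists, with a whole-series score of 54.06, 486.85 in replicate 1 and 1203.77 in replicate 2. A replicate 1 peak was found within 500 bp of 20 unsupported peaks and a replicate 2 peak within 500 bp of 15. The median distance to the nearest was 12.8 kb and 28.9 kb. Few unsupported peaks thus lay within 500 bp of a replicate peak, and no autosomal values stand beside these counts. Read depth and input signal, which could move with these lists, have no values here, and their part in the difference between X and the autosomes was not tested.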

How the data were processed

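Peaks were called with MACS for each of the 2 COH-3 ChIP libraries and with MACS v2 for the whole series, per the file contents, on WormBase WS220, per the file headers. The submitters' processing notes name BWA and ce10. The deposited value of each peak is a score of a kind not given in the sources used here. Replicate scores are 50.03 or more and tie at 3100, and whole-series scores are on another scale. The way the authors combined replicates and inputs is likewise unstated, and the files hold no read depth, so the depth behind a peak is unknown. Positions were kept as deposited in the 3 lists, 1-based.

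The farthest peak end over the 3 lists served as chromosome length (17.7 Mb for X). Peaks were placed by midpoint, and overlap meant at least 1 bp, checked with bedtools 2.31.1. Score classes were 10 equal parts of a list by rank. The functions were tested on simulated data. Python 3.11.15, numpy 2.4.6, pandas 2.3.3, scipy 1.17.1, statsmodels 0.14.6 and matplotlib 3.10.9 were used. X was compared with the 5 autosomes by an exact two-sided permutation over chromosomes, for 23 measures adjusted together (Benjamini-Hochberg), of which 13 were added after values of these data were seen. Named peaks were the 20 highest-scoring X peaks, the highest of each arm and the centre, the 5 widest, the first and last, unsupported peaks of the highest class, and the 3 longest gaps and densest bins. Ranks 21 to 40, the largest runs and the strongest replicate 2 peak with no whole-series peak were named after their values were seen. The members, measures and lists were chosen with earlier results of these data known. The planned comparison of the antigen with COH-3 and COH-4 was not made.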

Additional observations from a re-analysis of the deposited data

How the results depend on the processing

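Of 38 alternative settings over 8 results, 3 reversed a direction and 12 moved a value beyond its spread. The other 23 kept the direction or stayed within the spread between replicates, which is wide, and no call could change because no p could pass 0.05. The X to autosome density ratio of 0.528 ran from 0.425 to 0.731 when 1 replicate was left out and stayed below 1 in the other 4 settings. The X minus autosome median score, 0.339, became -0.596 in the upper 50% of the list and -0.606 with peaks within 1000 bp joined; the cause was not tested. The X minus autosome share in both lists, -5.73 percentage points, ran from -11.2 to 12.6 when a single replicate was asked for, since X leads in replicate 1 alone. The share of X peaks in both lists, 5.36%, was 2.68% with 50% reciprocal overlap, 7.24% within 500 bp, and 25.3 to 45.7% with 1 replicate. The X share of the highest 10%, 11.7%, was 14.7% in the highest 5%, 21.6% among peaks in both lists, and 9.52 to 15.8% in the replicate lists. The median X peak width, 268 bp, was 478 and 294 bp in the replicate lists. The median X gap, 7063 bp, was 13856.5 to 15135.5 bp in the replicate lists, 19666.5 bp in the upper 50% and 15253 bp after joining, as fewer peaks remain. The centre to arm ratio on X, 0.938, was 0.557 in replicate 2 and 1.11 in replicate 1. No paired analysis was possible because no deposited values of the inputs were at hand, so the planned replicate block was not run. Unknown depth, tied scores at 3100 and 2 ChIP libraries limit these results.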
